A study of Mus musculus with 12 samples.

Results

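The genes described here are the expressed members of a naming family, mouse zinc finger protein genes whose symbol is Zfp followed by a 3-digit number. Members were chosen by their measured level: their coding transcripts summed to 1 FPKM or more on average over the 6 total RNA libraries of MTEC1 cells, treated and untreated alike. FPKM, fragments scaled to transcript length and to the size of the library, is a level per length, so levels can be set beside each other across genes. Of 317 such genes in the coding table, 162 were members, 129 lay above 0 but under the mean of 1, and 26 were listed at 0 in all 6 libraries. The coding table held 21771 genes in all, of which 8659 reached the same mean. The members just above the limit were Zfp978 at 1.00 FPKM, Zfp707 at 1.01 FPKM and Zfp229 at 1.01 FPKM. The genes just below it were Zfp758 at 0.958 FPKM, Zfp267 at 0.985 FPKM and Zfp781 at 0.994 FPKM.

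MTEC1 is a wild-type mouse line labelled as medullary thymic epithelial, grown in DMEM with 10% fetal bovine serum. One group of 3 libraries came from cells given 50 µg/ml PAMK for 12 h, and the other group of 3 came from untreated control cells. PAMK usually stands for a polysaccharide of the rhizome of Atractylodes macrocephala Koidz, a herb of Chinese medicine. The design text gives the control cultures 6 h, and if that is right treatment and culture time cannot be told apart. The labels do not state if replicate libraries stem from separate cultures; the p-values below then reflect only how far these samples scatter, which can be technical.

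Zfp symbols are given in the mouse to proteins with zinc fingers, most of them of the C2H2 type, in which a pair of cysteines and a pair of histidines hold a zinc ion. Strings of such fingers read DNA or bind RNA and protein. Many of these proteins carry a KRAB domain, which recruits the co-repressor Trim28 and with it the histone methyltransferase Setdb1 and heterochromatin proteins, chiefly to silence transposable elements. KRAB genes lie in clusters of related copies, and others, such as Zfp143 and Zfp207, are single conserved genes with duties at promoters or on the mitotic spindle. In the thymus, medullary epithelial cells are known for showing tissue antigens to developing T cells.

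Promoter sequences were available for 132 of the 162 members, as 161 RefSeq windows of 300 bases in GRCm38.p6 that run from 250 bases before to 50 bases after an annotated start. They are shown for 4 members on which the results below turn: Zfp111 (1 of its 2 windows), near 0 in every control library, Zfp697, listed at 0 in 1 PAMK library, and Zfp207 and Zfp358, among the highest levels and not overlapping between the groups. Capitals mark matches to the motifs described next, on either strand.
Zfp111, chr7:24208100-24208399, minus strand: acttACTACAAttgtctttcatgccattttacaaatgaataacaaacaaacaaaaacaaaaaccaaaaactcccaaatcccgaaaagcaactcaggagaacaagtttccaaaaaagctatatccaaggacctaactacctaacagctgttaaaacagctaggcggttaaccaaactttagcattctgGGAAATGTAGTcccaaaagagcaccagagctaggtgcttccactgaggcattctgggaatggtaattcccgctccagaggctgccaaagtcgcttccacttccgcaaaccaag
Zfp697, chr3:98382231-98382530, plus strand: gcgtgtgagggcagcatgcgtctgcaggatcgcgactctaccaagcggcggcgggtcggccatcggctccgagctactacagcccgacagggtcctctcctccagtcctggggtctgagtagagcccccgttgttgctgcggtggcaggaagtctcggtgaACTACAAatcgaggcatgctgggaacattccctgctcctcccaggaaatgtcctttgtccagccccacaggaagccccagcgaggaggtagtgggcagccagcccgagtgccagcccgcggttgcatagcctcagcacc
Zfp207, chr11:80383029-80383328, plus strand: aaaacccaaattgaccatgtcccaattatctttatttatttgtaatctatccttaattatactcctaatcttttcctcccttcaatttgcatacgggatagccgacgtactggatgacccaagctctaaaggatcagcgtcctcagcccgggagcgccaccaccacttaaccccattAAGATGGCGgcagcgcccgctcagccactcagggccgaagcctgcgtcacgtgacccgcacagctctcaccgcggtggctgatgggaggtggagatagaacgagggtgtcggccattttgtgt
Zfp358, chr8:3492888-3493187, plus strand: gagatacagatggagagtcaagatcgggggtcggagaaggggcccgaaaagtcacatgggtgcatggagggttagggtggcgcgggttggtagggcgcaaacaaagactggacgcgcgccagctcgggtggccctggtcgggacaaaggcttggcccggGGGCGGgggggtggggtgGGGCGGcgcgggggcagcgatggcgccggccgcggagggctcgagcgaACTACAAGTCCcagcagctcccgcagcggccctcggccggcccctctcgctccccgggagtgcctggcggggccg

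The Zfp111 window holds the ACTACAA core of the site read by ZNF143, the human form of Zfp143, and further on a reverse-strand match to the longer form, ACTACA and TCC with 2 bases of any kind between them. The other Zfp111 window, not shown, held no match to any motif searched, and which start the cells used was not tested. Zfp697 holds the core alone. In Zfp358 the core and the longer form overlap, beside a pair of GGGCGG boxes, the motif of Sp proteins. Zfp207 holds AANATGGCG, the motif of YY1.

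Over the members, the longer ZNF143 form was found in 16 of 161 windows (9.94%), against 4.57% of 8929 windows of genes with a mean of at least 1 FPKM and 1.98% of all 32851 windows. This form was searched after the Zfp111 window had been read. The core ACTACAA, which overlaps it wherever the first base between is A, was in 6.83% of member windows, against 4.56% of windows of genes at that level and 3.24% of all windows. AANATGGCG was in 8.70% of member windows, against 5.76% and 2.38%. The other motifs were less frequent in member windows than in windows of genes at that level. CCGGAAG, the motif of ETS proteins, was in 18.6% of member windows, against 19.3% of windows of genes at that level and 8.86% of all windows. GGGCGG was in 50.3% of member windows, against 65.9% and 35.7%. All motifs were searched on both strands, and a match is a run of letters, not a measured binding site. Differences between these shares were not tested. Windows of the same gene can overlap and count more than once, as for the core in Zfp169. Member windows had a median of 17 CpG dinucleotides and 57.7% G and C bases, against 22 and 61.3% in windows of genes at that level and 7 and 52.7% in all windows.

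**Figure D1:**
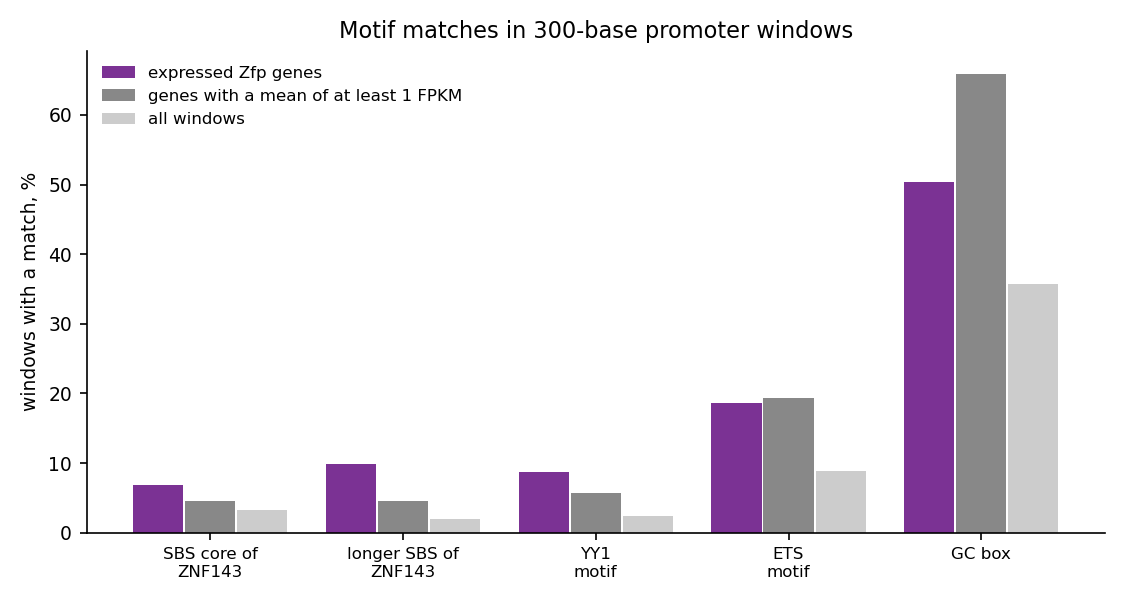
Share of 300-base promoter windows with at least 1 match (y axis, percent) for 5 motifs (x axis), in windows of expressed Zfp genes (161), of genes with a mean of at least 1 FPKM (8929) and of all genes in the RefSeq table (32851). The longer ZNF143 form stands at 9.94% in Zfp windows against 4.57% at expressed genes, while the GC box stands at 50.3% against 65.9%.

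The members were low genes as a group. Their median level was 2.65 FPKM, against 5.30 FPKM for all 8659 genes with a mean of at least 1 FPKM. Of the members, 60 (37.0%) lay between 1 and 2 FPKM, against 17.7% of all genes at that level. Only 9 members (5.56%) reached 10 FPKM, against 30.5% of all genes. The related Zbtb genes, whose zinc fingers follow a BTB domain, had a median of 3.07 FPKM over 35 genes, and the Zscan and Zkscan genes a median of 1.89 FPKM over 10 genes. Zfp genes with other names, such as Zfp57, had a median of 2.48 FPKM over 40 genes.

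The order of levels began with Zfp706 and Zfp207. Zfp706, a small protein that in mouse embryonic stem cells promotes the exit from self-renewal, averaged 43.4 FPKM over all libraries. It had 41.8, 37.8 and 41.8 FPKM in the PAMK libraries, against 47.2, 49.4 and 42.5 FPKM in the control libraries. Zfp207 (BuGZ), which delivers Bub3 to kinetochores and binds the spindle, had 43.8, 46.1 and 55.3 FPKM with PAMK, against 43.8, 28.5 and 38.4 FPKM in controls. Zfp706 was thus lower and Zfp207 higher in every PAMK library than in every control library, by a narrow margin in both cases. Zfp664 had 36.9, 36.2 and 36.1 FPKM with PAMK, against 34.2, 38.9 and 39.4 FPKM in controls, and its groups overlapped.

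Zfp106, an RNA-binding protein that mice need to keep motor neurons, had 23.1, 28.3 and 28.1 FPKM with PAMK, against 25.6, 19.4 and 28.8 FPKM in controls. Zfp655 had 20.2, 21.7 and 22.1 FPKM with PAMK, against 23.6, 22.2 and 6.35 FPKM in controls. Control library 3 alone stood apart for Zfp655. Zfp871 had 14.0, 18.0 and 20.3 FPKM with PAMK, against 18.8, 19.4 and 19.8 FPKM in controls. Zfp358 had 13.1, 13.1 and 14.4 FPKM with PAMK, against 12.4, 11.4 and 11.7 FPKM in controls, without overlap. Zfp639 had 11.7, 12.5 and 14.0 FPKM with PAMK, against 8.59, 13.1 and 13.0 FPKM in controls. Apart from Zfp706, Zfp207 and Zfp358, these leading genes overlapped between the groups. Library ranges of neighbours in the order could overlap each other, as for Zfp706 and Zfp207, while those of Zfp664 and Zfp106 lay apart.

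**Figure D2:**
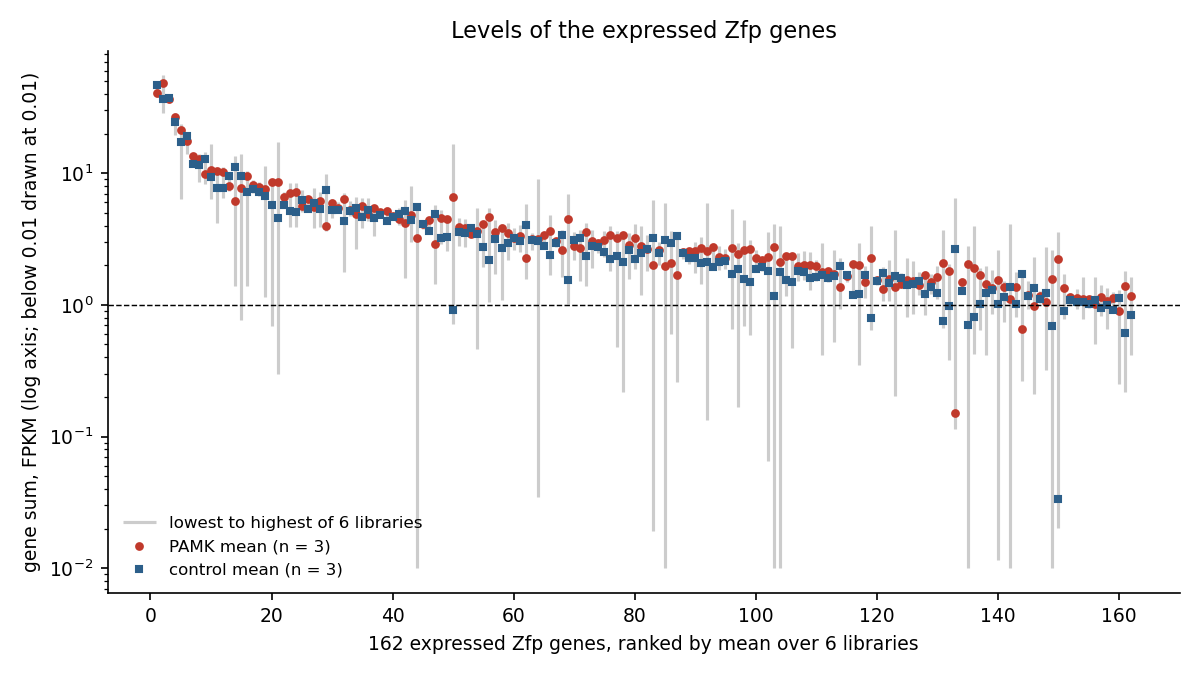
Gene sums in FPKM (log axis, values below 0.01 drawn at 0.01) for the 162 expressed Zfp genes, ranked by their mean over 6 libraries; circles are PAMK means, squares control means (n = 3 each), and grey lines run from the lowest to the highest library. Levels fall from 43.4 to 1.00 FPKM, and grey lines that reach the floor belong to genes listed near 0 in single libraries.

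The comparison of PAMK with control cells asked which of the members differed between the groups. None of the 162 members passed limma at an adjusted p of 0.05, against 7 of 9781 genes tested (0.0716%). The smallest adjusted p of a member was 0.280, for Zfp462. Before adjustment, 10 members had a limma p under 0.05, of which 9 were higher and 1 lower with PAMK, against 10.0% of all genes tested, 7.30% higher and 2.71% lower. In 23 members (14.2%) every PAMK library lay above every control library, and in 4 members (2.47%) every PAMK library lay below. Among all genes tested these shares were 14.1% higher and 5.40% lower, and among genes with a mean of at least 1 FPKM 14.7% and 5.66%. The members' share of higher genes was therefore near that background. In bulk RNA, fewer cells of a type and less RNA per cell cannot be told apart.

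The members leaned upward, with a log2 fold change above 0 in 121 of 162 (74.7%), against 60.6% of all genes with a mean of at least 1 FPKM. Their median log2 fold change of FPKM + 1 was 0.12, against 0.06 over all genes tested. This scale understates the change of low genes. Related genes with a mean of at least 1 FPKM lay above 0 in 57.5% of 40 other Zfp names, 54.3% of 35 Zbtb genes and 80.0% of 10 Zscan and Zkscan genes. The count above 0 follows the scaling, which moves all genes nearly alike. With libraries brought to equal medians, 88 members (54.3%) lay above 0, against 43.7% of genes with a mean of at least 1 FPKM, and with quantile normalization 89 members (54.9%), against 46.8%. Those scalings shifted genes by a median of -0.10 and -0.09 on the log2 scale. The members' median minus that of all genes tested was 0.06 with values as deposited and with equal medians, and 0.05 with quantile normalization. The members' FPKM summed to 685, 733 and 764 in the PAMK libraries, against 689.5, 654 and 651 in the control libraries. All 27 non-overlapping members kept their sign under both scalings.

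**Figure D3:**
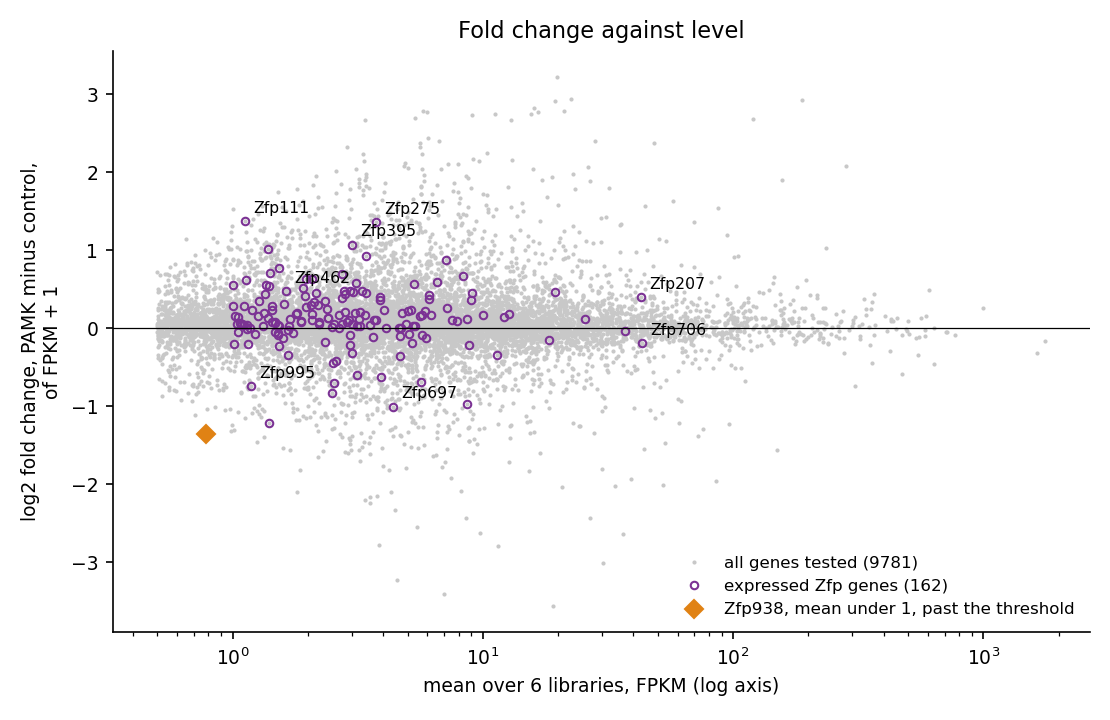
Log2 fold change of FPKM + 1, PAMK minus control (y axis), against the mean level in FPKM (log x axis) for the 162 expressed Zfp genes (open circles) and all 9781 genes tested (grey). The Zfp genes lie inside the cloud, 121 of them above 0; Zfp938, under the level limit, is the diamond.

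Among the members higher with PAMK without overlap, Zfp462 had the smallest p. Zfp462, a chromatin protein that in mouse embryonic stem cells helps to keep enhancers of other lineages silent, had 2.11, 1.94 and 2.14 FPKM with PAMK, against 1.25, 1.20 and 1.15 FPKM in controls. Its log2 fold change was 0.48 ± 0.0922 (SE), with an adjusted p of 0.280 in limma, and it ran from 0.46 to 0.51 when single libraries were left out. Zfp395 had 2.65, 6.91 and 3.80 FPKM with PAMK, against 1.02, 2.43 and 1.15 FPKM in controls, with a log2 fold change of 1.07 ± 0.364 and an adjusted p of 0.447. Its second library was the highest in both groups. Zfp800 had 4.08, 3.93 and 4.23 FPKM with PAMK, against 3.42, 1.94 and 2.96 FPKM in controls (0.45 ± 0.176, adjusted p 0.498), and 0.28 without control library 2.

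Zfp993 had 1.64, 1.90 and 1.54 FPKM with PAMK, against 1.43, 0.641 and 0.949 FPKM in controls (0.44 ± 0.173, and 0.30 without control library 2). Zfp808 had 1.64, 2.05 and 1.75 FPKM with PAMK, against 0.381, 1.37 and 1.21 FPKM in controls (0.54 ± 0.235, and 0.29 without control library 1). For Zfp808 the controls spread more widely than the groups lay apart. In Zfp275, Zfp623 and Zfp410 single libraries moved the value further. Zfp275 had 1.69, 1.49 and 16.6 FPKM with PAMK, against 1.02, 1.00 and 0.721 FPKM in controls; its log2 fold change of 1.36 ± 0.811 became 0.44 without PAMK library 3. Zfp623 had 8.63, 8.71 and 8.39 FPKM with PAMK, against 0.693, 8.14 and 8.23 FPKM in controls, and 0.87 ± 0.712 became 0.06 without control library 1. Zfp410, the activator of the remodeller gene Chd4 in mouse and human cells, had 1.41, 1.10 and 3.71 FPKM with PAMK, against 0.848, 0.665 and 0.762 FPKM in controls. Its 0.71 ± 0.327 became 0.36 without PAMK library 3.

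All 4 members that were lower with PAMK without overlap missed the limma threshold. Zfp995 had 0.266, 0.578 and 1.13 FPKM with PAMK, against 1.56, 1.77 and 1.81 FPKM in controls, with a log2 fold change of -0.74 ± 0.210 and an adjusted p of 0.378. Its PAMK libraries differed widely among themselves, and its value stayed between -0.94 and -0.56 when single libraries were left out. Zfp706, given above, differed by -0.19 ± 0.0775 (adjusted p 0.506). Zfp697 had 4.83 and 4.85 FPKM in PAMK libraries 1 and 2 and was listed at 0 in library 3, against 5.40, 5.65 and 5.50 FPKM in controls. Its -1.01 ± 0.744 became -0.16 without PAMK library 3. Zfp869 had 2.28, 2.51 and 0.261 FPKM with PAMK, against 3.24, 3.54 and 3.22 FPKM in controls, and -0.83 ± 0.425 became -0.35 without PAMK library 3. PAMK library 3 thus set the size of both differences, while libraries 1 and 2 still lay below every control library. These are coding sums, and the groups of Zfp869 overlapped once noncoding transcripts were added, as given below.

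**Figure D4:**
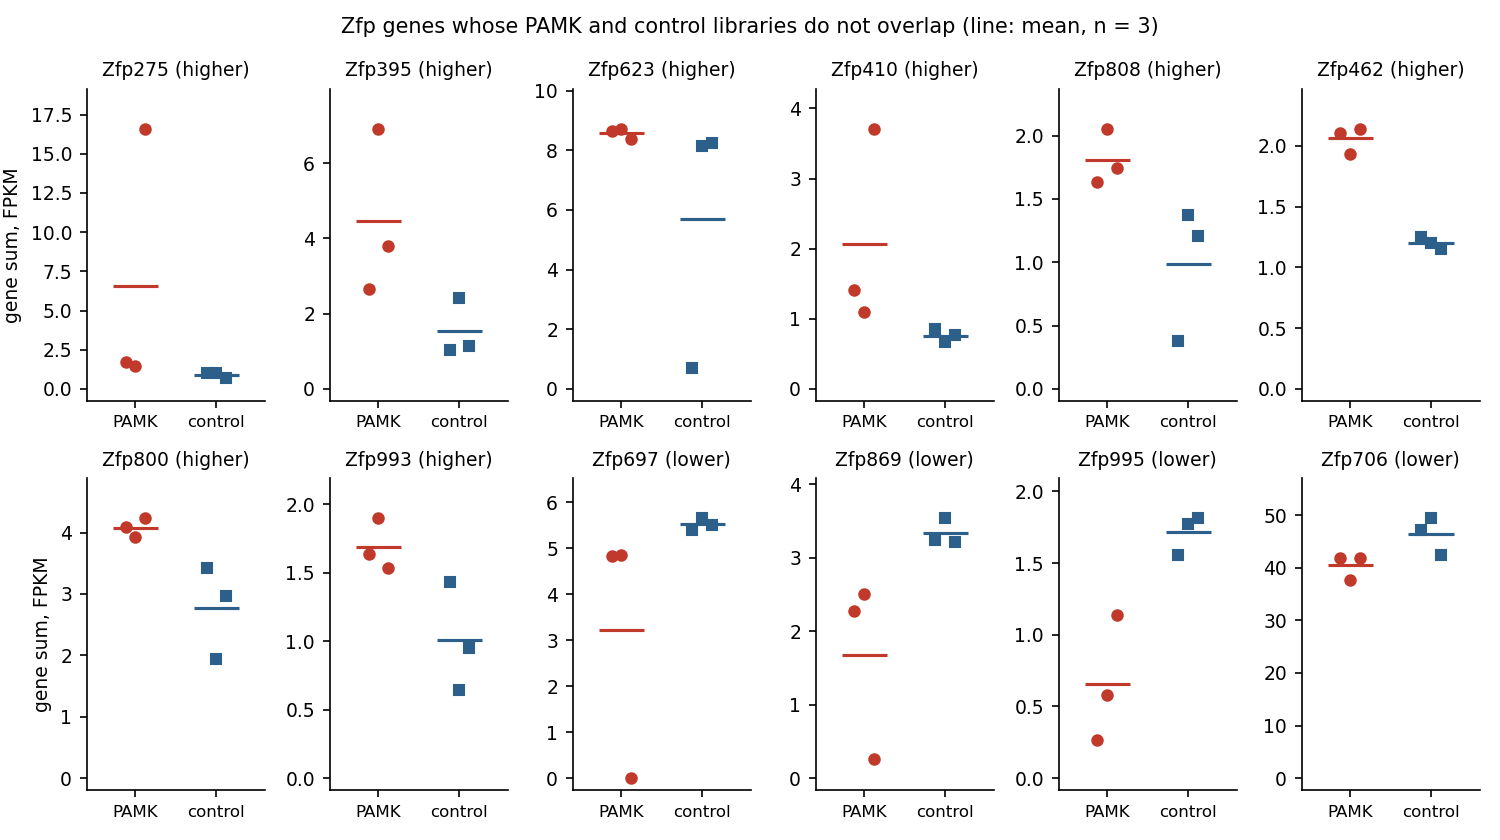
Gene sums in FPKM (y axes from 0, a scale for each gene) in the PAMK libraries (circles) and the control libraries (squares) of the 8 non-overlapping members with the largest positive log2 fold change and of all 4 lower ones; lines are group means (n = 3). Zfp462 shows close groups at 1.94 to 2.14 and 1.15 to 1.25 FPKM, whereas 1 library sets the means of Zfp275, Zfp623 and Zfp697.

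One member lay under 0.1 FPKM in all libraries of a whole group, and the choice of members called for this pattern to be noted, so it is a description. Of all genes with a mean of at least 1 FPKM, 30 (0.346%) did so. Zfp111 had 3.59, 0.0429 and 3.02 FPKM with PAMK, against 0.0250, 0.0553 and 0.0201 FPKM in controls. PAMK library 2 lay at the control level, so the groups overlapped. The log2 fold change was 1.37 with all libraries and 2.05 without PAMK library 2. No test is read from either value, since the gene was singled out for its low controls and reached the level limit through PAMK libraries 1 and 3. Its noncoding transcript, which the coding sum leaves out, did not follow: it had 1.02, 1.06 and 1.06 FPKM with PAMK, against 1.02, 0.943 and 1.13 FPKM in controls. Zfp111 spans 24193947 to 24211443 on the minus strand of chromosome 7 in the deposited positions and shares an assembled locus with Zfp109. Zfp109 had 0.739, 0.567 and 0.700 FPKM with PAMK, against 0.478, 0.443 and 0.443 FPKM in controls. Whether reads were divided between these neighbours was not tested.

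Below the level limit, Zfp938 was the 1 of 44 tested Zfp genes with a mean of 0.5 to 1 FPKM that passed limma. It was listed at 0 in PAMK libraries 1 and 2 and had 0.00817 FPKM in library 3, against 1.82, 1.39 and 1.49 FPKM in controls. Its log2 fold change was -1.35 ± 0.0958 with an adjusted p of 0.0414. Leaving out any PAMK library, control library 2 or control library 3 raised the adjusted p to between 0.0532 and 0.115, and leaving out control library 1 gave 0.0381. With all libraries kept, it was 0.0553 with robust variance moderation, so the call is not firm.

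Many members stood apart in single libraries within a group. With a 4-fold limit chosen after values were seen, 40 members (24.7%) had a library more than 4-fold below the median of the other 5 or more than 4-fold above it, with the higher value at least 1 FPKM, against 20.1% of all genes with a mean of at least 1 FPKM. The share moved with level in both sets: between 1 and 2 FPKM it was 31.7% of members against 29.4% of all genes, and from 10 FPKM up it was 0 of 9 members against 9.83%. Libraries far below numbered 8, 4 and 11 members in PAMK libraries 1 to 3, against 8, 9 and 11 members in control libraries 1 to 3. No library held most of them.

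Zfp958 was listed at 0 in PAMK libraries 1 and 3 and had 5.97 FPKM in library 2, against 5.90 and 3.40 FPKM in control libraries 1 and 2 and a listed 0 in control library 3. Its noncoding transcripts had 2.36, 2.51 and 2.72 FPKM with PAMK, against 3.61, 2.66 and 2.55 FPKM in controls. The noncoding sum therefore stayed above 2 FPKM in the libraries that listed no coding transcript. Zfp384 had 4.94, 4.24 and 0.298 FPKM with PAMK, against 0.0345, 9.02 and 0.164 FPKM in controls. Its noncoding sum had 5.62, 4.68 and 2.16 FPKM with PAMK, against 2.37, 4.08 and 2.20 FPKM in controls. That sum was thus lowest in the same libraries as the coding sum, PAMK library 3 and control libraries 1 and 3, though it fell less far. Zfp445, which with Zfp57 guards DNA methylation at imprinted genes, had 0.489, 7.77 and 17.3 FPKM with PAMK, against 4.28, 0.298 and 9.19 FPKM in controls. Its noncoding sum had 1.92, 1.87 and 2.75 FPKM with PAMK, against 3.59, 2.20 and 3.82 FPKM in controls, a far smaller range.

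Over all members, 51 such drops of the coding sum fell in 33 genes. In 22 of them, in 16 genes, the noncoding sum of the same gene was at least 0.5 FPKM in the other libraries and could be set beside it. The noncoding sum was 4-fold or more lower in 0 of the 22. It lay within 2-fold of the median of the other libraries in 21, among them Zfp384 at ratios of 0.529 to 0.580. In the remaining case, Zfp943 in control library 3, the ratio was 0.383. The 0.5 FPKM limit leaves out genes with a low noncoding sum elsewhere, such as Zfp365, which dropped in PAMK library 3 and control library 1. Its noncoding sum was 1.34 and 0.799 FPKM there, against 0.205 to 0.362 FPKM in the other libraries. For Zfp697 in PAMK library 3 the noncoding sum was 1.99 FPKM, against a median of 1.92 FPKM in the other libraries. Coding and noncoding transcripts of a gene overlap and come from the same reads, and whether the drops come from the cells or from how reads were assigned was not tested.

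**Figure D5:**
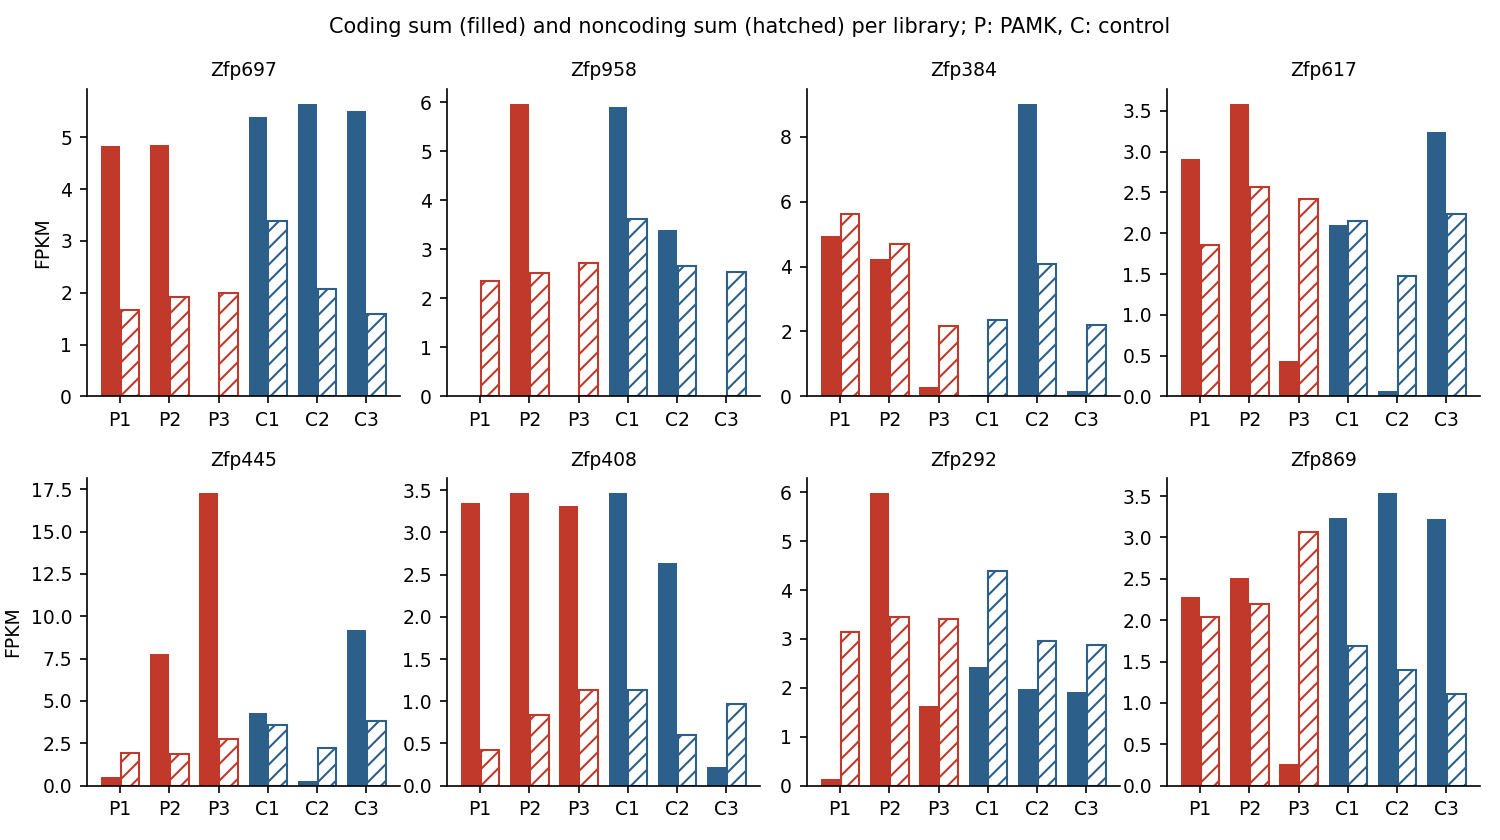
Coding sum (filled bars) and noncoding sum (hatched bars) in FPKM per library, PAMK libraries P1 to P3 left of control libraries C1 to C3, for the 8 members with the deepest drop of a coding sum and a noncoding sum to compare. Filled bars reach 0 in Zfp697 and Zfp958 where hatched bars stand at 1.99 to 2.72 FPKM.

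Single coding transcripts gave the same outcome as gene sums in limma, while overlap between the groups could differ. Of 544 coding transcripts of the members, 241 passed the level filter, none passed limma at 0.05, against 30 of 14728 transcripts tested (0.204%), and 11 had an unadjusted p under 0.05, against 7.48% of all. Groups did not overlap in 25 higher and 6 lower transcripts, against 10.8% and 5.12% of all transcripts. For Zfp462, transcript ENSMUST00000098070 had 1.95, 1.89 and 1.96 FPKM with PAMK, against 1.04, 1.17 and 0.706 FPKM in controls (0.58 ± 0.150, adjusted p 0.493). It carried most of the gene sum in every library. For Zfp106, ENSMUST00000055241 had 21.9, 25.6 and 26.1 FPKM with PAMK, against 20.2, 19.2 and 19.6 FPKM in controls, without overlap although the gene sums overlapped. For Zfp367, ENSMUST00000059817 had 0.863, 1.33 and 1.45 FPKM with PAMK, against 4.92, 7.62 and 1.95 FPKM in controls (-1.28 ± 0.422, adjusted p 0.617). The gene sums of Zfp367 overlapped, with 3.64, 4.11 and 4.09 FPKM with PAMK, against 8.46, 9.78 and 3.98 FPKM in controls.

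The noncoding table held 216 transcripts under 106 member names. Of the 202 tested, none passed limma at 0.05, against 9 of 23670 (0.0380%), and 17 had an unadjusted p under 0.05, against 5.76% of all. In 11 transcripts every PAMK library was above every control library, and in 8 every PAMK library was below, against 7.06% and 4.23% of all. These fold changes are of FPKM + 0.1. Zfp592, a zinc finger partner of the chromatin reader Zmynd8 in human cells, differed in opposite directions in the 2 tables. Its noncoding transcript ENSMUST00000149508 had 0.405, 0.474 and 0.392 FPKM with PAMK, against 1.28, 1.41 and 1.20 FPKM in controls (-1.41 ± 0.223, adjusted p 0.294). Its coding sum had 6.26, 6.54 and 6.34 FPKM with PAMK, against 5.12, 5.48 and 5.38 FPKM in controls. Added together, the groups overlapped, with a log2 fold change of FPKM + 1 of 0.04 ± 0.0795.

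Zfp263 and Zfp410 were higher in both tables. For Zfp263, noncoding ENSMUST00000159425 had 1.07, 1.05 and 0.914 FPKM with PAMK, against 0.00842, 0.000004 and 0.197 FPKM in controls (2.91 ± 0.481, adjusted p 0.333). For Zfp410, ENSMUST00000220832 had 3.64, 3.44 and 2.55 FPKM with PAMK, against 0.841, 0.416 and 0.0952 FPKM in controls (2.84 ± 0.569, adjusted p 0.468). With coding and noncoding transcripts added, Zfp410 had 7.48, 6.34 and 8.02 FPKM with PAMK, against 4.28, 3.48 and 2.39 FPKM in controls, a log2 fold change of FPKM + 1 of 0.94 ± 0.195 with an adjusted p of 0.325. For Zfp367, the assembled transcript on the minus strand of chromosome 13 at 64146445 to 64147118 had 10.6, 9.95 and 14.4 FPKM with PAMK, against 17.1, 17.9 and 16.1 FPKM in controls. Its PAMK libraries lay below the controls, as for coding transcript ENSMUST00000059817, though the coding sums of the gene overlapped. Added, Zfp367 had 14.3, 14.1 and 18.5 FPKM with PAMK, against 25.5, 27.6 and 20.0 FPKM in controls (-0.61 ± 0.162, adjusted p 0.378). The assembled transcript made up most of that sum in every library. Of the 27 members whose coding sums did not overlap, 16 higher and 3 lower ones also did not overlap in the added sums. Among those that then overlapped were Zfp869 (-0.17 ± 0.141), Zfp808 (0.015 ± 0.166) and Zfp993 (0.32 ± 0.229). Members without a noncoding transcript, such as Zfp207 and Zfp358, have equal coding and added sums, so their carry-over was fixed in advance. In all, 20 members were higher and 5 lower without overlap in the added sums. Shares over all genes are not given for added sums, so these counts are not read as a result. The noncoding sum of Zfp869 ran opposite to its coding sum, with 2.04, 2.20 and 3.07 FPKM with PAMK, against 1.68, 1.40 and 1.10 FPKM in controls.

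In a list of 13 zinc finger genes drawn up for RNA, ribosome and translation control, none passed limma. The list is loose, since it also holds Zfp706 and Zfp207, described above by other roles. Its shares are those of the list and not of a role. An unadjusted limma p under 0.05 was found for 1 gene, Zfp800 (7.69%, against 10.0% of all genes tested). A log2 fold change above 0 was found in 11 (84.6%, against 60.5% of all genes tested), with a median of 0.24 against 0.06. Zfp598, the ubiquitin ligase that marks collided ribosomes, had 6.57, 8.63 and 16.7 FPKM with PAMK, against 14.7, 6.39 and 6.82 FPKM in controls. Zfp593, whose yeast counterpart acts in large-subunit assembly, had 4.12, 3.61 and 3.78 FPKM with PAMK, against 3.38, 2.76 and 4.46 FPKM in controls. Both overlapped between the groups.

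Of 30 zinc finger genes of named transcription control, 25 were tested, none passed and 3 (12.0%) had an unadjusted p under 0.05. With 16 (64.0%) above 0, both shares were near those of all genes tested, and the median was 0.21. Zfp609, a partner of the cohesin loader Nipbl and of Integrator, had 5.30, 8.49 and 7.65 FPKM with PAMK, against 3.91, 6.53 and 4.73 FPKM in controls. Zfp131 had 5.10, 5.75 and 6.00 FPKM with PAMK, against 7.42, 6.25 and 5.08 FPKM in controls. Zfp260 had 9.13, 9.20 and 10.4 FPKM with PAMK, against 10.2, 9.87 and 1.40 FPKM in controls, with control library 3 apart. Zfp143, which reads the promoter motif shown above, had 2.73, 3.62 and 2.91 FPKM with PAMK, against 3.00, 2.30 and 2.30 FPKM in controls, and its groups overlapped.

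Of 11 KRAB genes with a named target, 4 were tested, none passed and 0 had an unadjusted p under 0.05, with all 4 above 0 and a median of 0.50. Zfp57, whose short name leaves it outside the membership, had 16.0, 19.0 and 16.3 FPKM with PAMK, against 8.19, 13.1 and 14.3 FPKM in controls. Zfp961 had 2.86, 3.10 and 3.65 FPKM with PAMK, against 0.482, 3.29 and 3.30 FPKM in controls. Zfp932, which silences endogenous retroviruses in mouse embryonic stem cells, had 1.15, 1.61 and 1.82 FPKM with PAMK, against 2.17, 0.851 and 1.27 FPKM in controls. Zfp809, which silences murine leukaemia virus in such cells, stayed between 0.144 and 0.455 FPKM in all libraries.

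The partners that KRAB proteins act through did not pass the test either. Of 31 listed, 30 had values, and Fam208a had none under that name. Not all were present in every library: Cbx3 had 3.15, 0.271 and 3.22 FPKM with PAMK, against 0, 1.37 and 0.00392 FPKM in controls. Of 30 co-repressor and heterochromatin genes tested, none passed limma, 2 had an unadjusted p under 0.05, and 18 (60.0%, against 60.5% of all genes tested) lay above 0, with a median of 0.10. Trim28, the co-repressor that binds the KRAB domain, had 130, 123 and 123 FPKM with PAMK, against 117, 124 and 125 FPKM in controls, far above any member. Setdb1, the methyltransferase it recruits, had 0.883, 1.51 and 1.61 FPKM with PAMK, against 1.83, 2.38 and 1.56 FPKM in controls. Cbx5, a heterochromatin protein, had 99.7, 13.2 and 93.6 FPKM with PAMK, against 9.36, 65.6 and 73.3 FPKM in controls, so single libraries stood apart here too. Groups did not overlap in 5 higher partners (16.7%, against 14.1% of all genes tested) and 1 lower one (3.33%, against 5.40%). The higher ones were Morc3, Daxx, Mphosph8, Dnmt3b and Hdac2. Morc3, a silencing ATPase, had 7.14, 3.95 and 8.41 FPKM with PAMK, against 2.63, 0.330 and 3.34 FPKM in controls (1.39 ± 0.529, adjusted p 0.490). The lower one was Hells, a chromatin remodeller needed for DNA methylation. Hells had 1.86 and 1.55 FPKM in PAMK libraries 1 and 2 and a listed 0 in library 3, against 4.60, 2.37 and 8.87 FPKM in controls.

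The members lay on 20 chromosomes, most often on chromosome 7 with 38, chromosome 17 with 16 and chromosome 8 with 13. Of them, 63 fell in 23 runs of neighbours with gaps of at most 200000 bases. The largest run, on chromosome 17 from 21707741 to 21994366, held Zfp760, Zfp229, Zfp820, Zfp995, Zfp942 and Zfp943. Its log2 fold changes ran from -0.74 for Zfp995 to 0.62, with 4 of 6 above 0. Of the 23 runs, 14 had every member above 0, among them 3 of the 5 runs of 4, while 9 were mixed and 0 had every member below 0. In all, 52 of the 63 members in runs lay above 0, in the same scaling in which 121 of 162 members did. In 16 assembled loci a member stood with another gene name, 19 members in all, Zfp995 among them. The sources used here do not state how reads of near-identical copies were divided, and levels of such genes are uncertain.

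The labelled epithelial identity was checked against markers. Of 11 epithelial markers, 10 lay under 1 FPKM in every library, and Krt5, Krt14, Epcam, Aire and Cldn4 were listed at 0 in all. The remaining epithelial marker, Ly75, lay between 0.906 and 2.21 FPKM. Epithelial markers summed to 1.18 to 2.55 FPKM with PAMK and 2.13 to 2.37 FPKM in controls, and 4 mesenchymal markers, led by Vim and Col1a1, to 155 to 317 FPKM with PAMK and 139 to 253 FPKM in controls. Col1a1 had 49.6, 57.7 and 48.2 FPKM with PAMK, against 37.3, 28.3 and 37.3 FPKM in controls, without overlap (0.59 ± 0.137, adjusted p 0.315). Col1a2 was listed at 0 in PAMK libraries 1 and 3 and had 91.2 FPKM in library 2, against 0.0143, 81.0 and 61.7 FPKM in controls. Pdgfrb, the remaining mesenchymal marker, lay only between 0.242 and 0.368 FPKM in all libraries. Of 3 haematopoietic markers, Ptprc and Cd3e were listed at or near 0 and Cd68 had 1.64, 1.43 and 1.38 FPKM with PAMK, against 0.410, 0.821 and 0.910 FPKM in controls, while both endothelial markers summed to at most 0.0597 FPKM in any library. The cells are therefore called MTEC1 after their label only. The part of these markers in the results was not tested.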

How the data were processed

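Total RNA libraries were depleted of ribosomal RNA and sequenced as paired reads (NovaSeq), per the labels' protocols. Tools listed in the submitters' processing notes are cutadapt, FastQC, HISAT2, StringTie and edgeR, with the build, the annotation, strand handling and tool versions not given in the sources used here. Transcript values as deposited were taken as FPKM, an inference from the StringTie layout, since the file headers call them normalized counts. Fragment counts were not recovered, so the depth is unknown and no interval for counting error is given. The deposited placeholder of 0.0001 was set to 0, and it filled 55.6% to 58.1% of coding transcripts per library.

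Coding transcripts were summed by gene name. Genes and coding transcripts averaging 0.5 FPKM or more were tested on log2(FPKM + 1), and noncoding transcripts averaging 0.1 or more on log2(FPKM + 0.1), with limma 3.58.1 in R 4.3.3 (trend, two-sided, Benjamini-Hochberg over the whole table at 0.05). The steps were tested on simulated data. Small RNA libraries were not used here. Alternatives were other pseudocounts, filters and scalings, a replicate block, and leaving out each library. Members, gene lists and the naming rule were chosen with earlier results of these data known. Named were members near 0 in a whole group, the non-overlapping members with the largest fold changes, the highest members, those nearest the limit, the highest of each list, and the transcripts with the smallest p; others, such as the drops, the members of the shown promoters, Hells, Morc3, Setdb1 and Zfp938, were chosen after their values were seen.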

Additional observations from a re-analysis of the deposited data

How the results depend on the processing

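Of 512 fold changes of 32 named members under the alternatives, 18 had the opposite sign and 1 passed the threshold. The count of members past limma at 0.05 was 0 and ranged from 0 to 1 over the fits that left out 1 library; Zfp111 passed without PAMK replicate 2 (adjusted p 0.0372, against 0.528 with all libraries). That fit leaves out the PAMK library at the control level, of a gene noted for its low controls, so the pass gives no support. Over all settings the smallest adjusted p of a member lay between 0.0372 and 0.673. The number of members was 102 with a mean of at least 2 FPKM, against 162. Members near 0 in a whole group numbered 0 under 0.05 FPKM, 2 under 0.2 FPKM (Zfp111 and Zfp469) and 0 with noncoding transcripts added, against 1. Members with an unadjusted p under 0.05 numbered 6 after quantile normalization, against 10. Calls over all genes ranged from 4 to 19 when 1 library was left out, against 7, and numbered 4 with robust variance moderation. Members with a library 10-fold from the others numbered 22, an alternative chosen after seeing the data.

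Equal replicate numbers left no visible pairing in the values: deviations of same-numbered libraries correlated at -0.023, 0.0066 and 0.0031. Such correlations cannot show whether same-numbered libraries were prepared together. With the replicate number as a block, 0 members passed limma, 0 of all genes passed and the smallest adjusted p of a member was 0.673; Zfp938, not a member, had 0.509, against 0.0414 without the block. Depth is unknown, so what it limits in low genes cannot be stated.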
